A study of Mus musculus with 16 samples.

Results

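Cultured brown adipocytes were given triacsin C with no lipolytic trigger, and their gene expression was compared with that of cells given vehicle. The samples compared were the 3 libraries labelled TC (replicates 1, 2 and 3) and the 2 labelled Vehicle (replicates 2 and 3), taken by their column names in the count table, which makes 5 of 16 samples in the table. Vehicle replicate 1 and SR-3420 replicate 2 were not analysed here. RNA was sequenced, and reads were counted for 20295 genes.

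The cells were wild-type mouse brown preadipocytes of the BAT-LgT line, immortalised with the SV40 large T antigen, and were used on day 7 of differentiation. They represent 1 line in culture. Cells were pretreated for 1 h with DMSO as vehicle, with 5 µM triacsin C (TC) or with 50 µM etomoxir (ETO), an inhibitor of carnitine palmitoyltransferase 1, and kept for a further 3 h with or without SR-3420. SR-3420 is a small molecule that triggers lipolysis by releasing ABHD5 from perilipins. Its concentration was 10 µM per the labels, and the study's figure legends give another concentration. Every group shares the cell line, the day of differentiation and the duration, and the remaining 11 samples are 3 ETO, 2 SR-3420, 3 TC+SR-3420 and 3 ETO+SR-3420 libraries. The study describes biologically independent experiments with technical duplicates. The p-values rest on the spread between libraries within groups, taken over all 6 groups and 16 samples and not from the 5 compared samples alone. Total counts per gene table column were 14032494 and 10097582 in vehicle and 9452861, 15818919 and 13164376 with TC.

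Long-chain acyl-CoA synthetases join fatty acids to coenzyme A, the step that precedes their esterification into triglyceride, their entry into mitochondria and their use in membrane lipids. Triacsin C is a product of Streptomyces bacteria that competes with fatty acids for several of these enzymes, so that fatty acids stay unesterified. Brown adipocytes burn fatty acids for heat and constantly break down and rebuild triglyceride, which makes this step a busy one even without a hormonal trigger.

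Adipocyte markers were abundant in all 5 libraries. Of 15 brown adipocyte markers, Fabp4 had the highest level per length in vehicle, with 148743 normalized counts per kb of counted length, followed by Adipoq at 33185 per kb. Counts were normalized with size factors over all 16 samples. Of the 14 markers tested 5 were lowered, namely Prdm16, Ppargc1a, Ppara, Pparg and Ebf2, and 0 were raised by edgeR or DESeq2, with 1 at an unadjusted p under 0.05. The summed level of the 15 markers, most of it from Fabp4 and Adipoq, was 228594 and 203512 in vehicle and 219568, 239835 and 227340 with TC. Dio2 was at 0 in both vehicle libraries, and Ucp1, the uncoupling protein that defines brown fat, was low at 27.3 and 6.42 in vehicle and 13.2, 35.5 and 27.1 with TC. The label brown adipocyte thus rests on adipocyte genes and on other brown fat markers, and hardly on Ucp1 in these unstimulated cells. Of these markers Cidea, Cox8b and Elovl3 were not called. Prdm16 (553 and 411), Ppargc1a (703 and 728), Ppara (1270 and 1138) and Ebf2 (427 and 585) were present in vehicle as well but were lowered with TC. For other cell types, 7 of 9 preadipocyte or fibroblast, 1 of 5 endothelial and 3 of 6 skeletal muscle markers had enough counts to be tested, and edgeR called 0 of them. At an unadjusted p under 0.05, and by DESeq2, 1 muscle marker was raised. The most abundant were Col1a1, Kdr and Des, and the sums were 22471 and 19678 for fibroblast markers in vehicle against 31325, 27771 and 23913 with TC. Endothelial sums were 24.2 and 24.4 against 11.7, 33.6 and 27.1, and muscle sums 211 and 122 against 180, 207 and 264. Among 7 macrophage markers, Cd68, a lysosomal membrane protein also made outside macrophages, was the most abundant and rose from 67.7 and 45.0 to 202, 225 and 209. Mean vehicle levels of 5 of the 7, among them Ptprc, Emr1 and Itgam, were below 10. The part of other cell types in the results was not tested beyond these levels, and in bulk samples fewer cells of a type and less RNA per cell cannot be told apart.

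Triacsin C alone changed many genes. Of 12786 genes with enough counts to be tested, 610 were raised (4.77%) and 887 lowered (6.94%) at an adjusted p under 0.05 in edgeR's quasi-likelihood test, 1497 in all (11.7%). The lowered group thus made up most of the calls, while the median log2 fold change of all genes tested was 0.07. A change of at least 1 on the log2 scale was found for 309 raised (2.42%) and 396 lowered genes (3.1%), of which 202 and 395 had at least 10 counts in every ETO library, a filter chosen after seeing the data. Both vehicle libraries lay below all 3 TC libraries for 2971 genes (23.2%) and above them for 2535 (19.8%). The count depended on the vehicle libraries: without Vehicle 2 it was 840 genes and without Vehicle 3 it was 702, of which 180 were raised and 522 lowered. Of 115 called genes chosen by rule for naming, 32 were no longer called without Vehicle 2 and 43 without Vehicle 3, and none of them changed direction in either case. Gene lists are described by the number of tested members called by edgeR. These numbers stand beside 4.77% raised and 6.94% lowered among all tested genes. In the 14 lists with 0 lowered members, 0 to 2 members per list were lowered at an unadjusted p under 0.05 and DESeq2 called 1 in each of 3 lists. In the 7 lists with 0 raised members the unadjusted number was 0 or 1 and DESeq2 called 1 in 1 list. Unless stated otherwise, the sentences that follow give normalized counts as vehicle replicates 2 and 3 and then TC replicates 1, 2 and 3, and log2 fold changes with their standard errors (SE).

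The most abundant gene among the largest increases was Hmox1 (heme oxygenase 1), which breaks down heme and is a classic target of the antioxidant factor NRF2. Hmox1 stood at 3429 and 3185 in vehicle and at 37201, 39476 and 37633 with TC, so that every TC library was far above every vehicle library. Its log2 fold change was 3.55 (SE 0.18, adjusted p = 2.43e-07). Mt2, a metallothionein that binds zinc and other metals, was at 753 and 681 in vehicle and 6456, 8194 and 7540 with TC (log2 fold change 3.39, SE 0.18, adjusted p = 2.43e-07). Mt2 lies on chromosome 8 from 96696518 to 96697467 in mm9, plus strand. The neighbouring and closely related Mt1 and the zinc exporter Slc30a1 were looked up after their values were seen. Mt1 was at 5541 and 3402 in vehicle and 15868, 23738 and 17766 with TC (log2 fold change 2.12, SE 0.35), although reads of such similar genes may have been split between them. Slc30a1 was at 316 and 375 in vehicle and 996, 1055 and 1061 with TC (log2 fold change 1.61, SE 0.29).

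**Figure D1:**
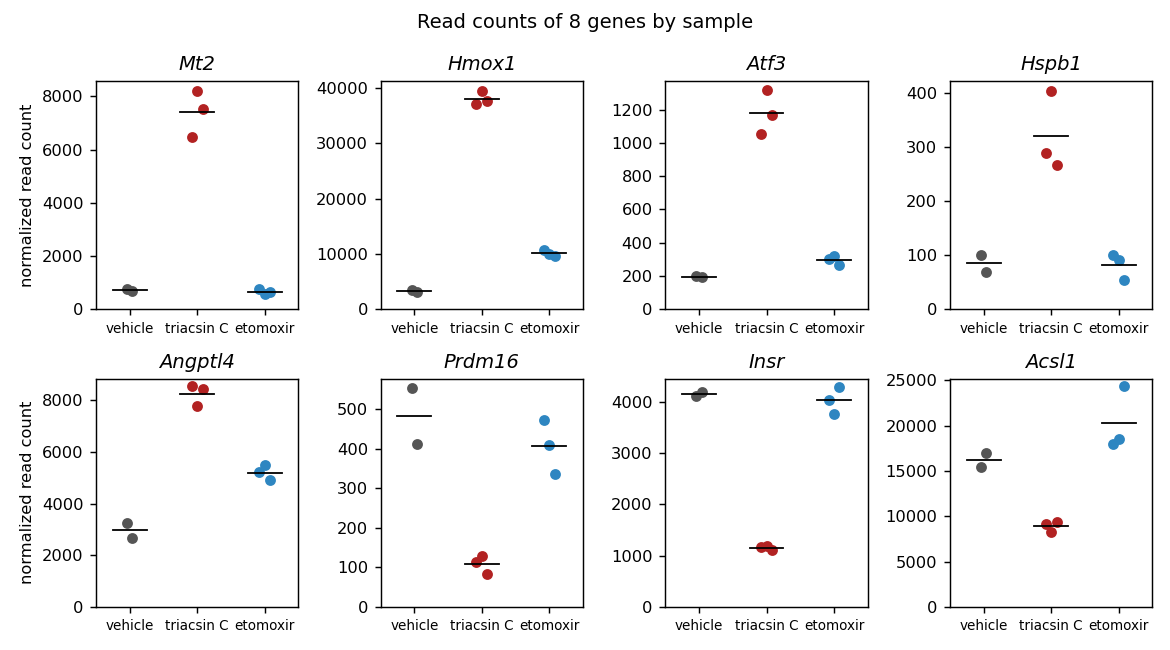
Normalized read counts (vertical axes, linear from 0) of 8 genes in each vehicle, triacsin C and etomoxir library (points), with group means as lines. The TC points of Mt2, Hmox1, Atf3, Hspb1 and Angptl4 lie above both vehicle points and those of Prdm16, Insr and Acsl1 below them.

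Promoter sequences of 300 bases, from 250 before to 50 after the gene start, were taken from RefSeq (build GRCm38.p6) and matched by symbol, with the first-listed entry shown, for 463 of the 610 raised, 662 of the 887 lowered and 9649 of the 12786 tested genes. Percentages of promoters are taken over 541 promoters of raised, 926 of lowered and 12363 of tested genes, so genes with several promoters count more than once. The promoters of Mt2 (chr8:94172368-94172667, plus strand) and Mt1 (chr8:94178839-94179138, plus strand) are shown because both metallothioneins rose together. Capitals mark the metal response element core, TGCACNC or TGCGCNC on either strand.
Mt2: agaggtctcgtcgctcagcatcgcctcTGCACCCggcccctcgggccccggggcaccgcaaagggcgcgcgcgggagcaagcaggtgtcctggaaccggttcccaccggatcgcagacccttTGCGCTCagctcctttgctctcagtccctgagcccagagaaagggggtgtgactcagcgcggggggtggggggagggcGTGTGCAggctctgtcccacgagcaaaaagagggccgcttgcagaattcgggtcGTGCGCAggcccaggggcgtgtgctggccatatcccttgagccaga
Mt1: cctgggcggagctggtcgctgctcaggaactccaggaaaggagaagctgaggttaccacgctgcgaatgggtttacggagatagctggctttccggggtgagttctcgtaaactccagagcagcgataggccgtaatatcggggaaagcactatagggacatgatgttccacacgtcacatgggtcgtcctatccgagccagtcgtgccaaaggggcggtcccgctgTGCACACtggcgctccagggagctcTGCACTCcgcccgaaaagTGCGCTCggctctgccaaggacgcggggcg
The Mt2 promoter held 4 matches, starting at positions -223, -128, -50 and 5 from the gene start, and the Mt1 promoter held 3, starting at -23, 3 and 21. A match to these letters occurred in 8444 of all 32851 promoters, in 35.6% of those of tested genes and in 32.2% of those of raised genes. Single matches are therefore common, and the raised genes as a group did not hold more of them. An AP-1 element (TGANTCA) and an antioxidant element core (TGACNNNGC) overlapped each other at position -79 of the Mt2 promoter. A match is a description of letters and no evidence of binding.

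NRF2 targets had the largest share of raised members of the 35 gene lists examined. Of 32 members tested, 14 were raised and 1 was lowered, with a median log2 fold change of 0.62 beside 0.07 for all genes. Txnrd1, a thioredoxin reductase, was at 4361 and 4350 in vehicle and 10986, 11314 and 10232 with TC (log2 fold change 1.34, SE 0.12, adjusted p = 1.29e-05). It overlaps the raised gene Eid3, and reads of the pair could not be told apart. Gclc, which makes the limiting subunit for glutathione synthesis, rose from 1535 and 1620 to 3187, 3474 and 3291 (1.09, SE 0.12). Srxn1 (sulfiredoxin), Osgin1 and Nqo1, picked after their values were seen, had log2 fold changes of 1.63, 2.32 and 1.41. The lowered member was Abcc4, a transporter that exports cyclic nucleotides among others, at 548 and 504 in vehicle and 211, 206 and 193 with TC. The number of raised NRF2 targets was 11 without Vehicle 2 and 6 without Vehicle 3. The antioxidant element core was found in 17.4% of promoters of raised genes, 13.1% of those of lowered genes, 14.3% of those of tested genes and 12.4% of all promoters.

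Genes of the integrated stress response, which is set off when translation initiation is restrained, rose in part. Of 57 members tested, 14 were raised and 0 lowered, with a median of 0.39. DESeq2, another test, called 20 raised and 1 lowered, and the number raised was 10 without Vehicle 2 and 5 without Vehicle 3. Atf3, a transcription factor induced by many stresses, was at 201 and 190 in vehicle and 1052, 1315 and 1170 with TC (log2 fold change 2.61, SE 0.17, adjusted p = 1.1e-06). Fgf21, a secreted metabolic hormone, was much less abundant, at 12.1 and 7.71 against 35.2, 38.3 and 44.8 (1.98, SE 0.23). Ppp1r15a, the phosphatase subunit that restores translation, was at 638 and 501 against 1159, 1372 and 1127 (1.12, SE 0.18). Atf4 itself, looked up after the fact, was at 6306 and 6395 against 10187, 9307 and 10318 (0.67, SE 0.13). Several well-known targets were not called. Trib3 had a log2 fold change of 0.38 (adjusted p = 0.257), Asns, which makes asparagine, 0.29 (adjusted p = 0.199) and Ddit3 0.79 (adjusted p = 0.0765). Of 40 chaperones and folding factors of the endoplasmic reticulum, Herpud1 was raised (0.53) and Atf6 was lowered (-0.61), and the median was 0.12, with 3 and 2 by DESeq2. Without Vehicle 2 the call on Herpud1 was lost, and without Vehicle 3 those on both genes were.

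Of 22 cytosolic heat shock proteins tested, 6 were raised and 0 lowered, and the median was 0.51. With the trend over gene span removed, an alternative chosen after seeing the data, that median was 0.09. Hspb8 and its partner Bag3, which guide misfolded proteins to autophagy, went from 2365 and 2494 to 4634, 4281 and 4929 (log2 fold change 0.95, SE 0.12) and from 1369 and 1303 to 2361, 2242 and 2236 (0.79, SE 0.11). Hspb1, a small heat shock protein, was at 99.98 and 69.4 in vehicle and 289, 405 and 266 with TC (1.93, SE 0.36, adjusted p = 0.00278), though it was not called without Vehicle 3. The inducible Hspa1a and Hspa1b, near-identical copies whose reads may have been split, had log2 fold changes of 1.55 and 1.14 with adjusted p = 0.0736 and 0.145. The number of raised members was 3 without Vehicle 2, 2 without Vehicle 3 and 3 without TC replicate 3, and DESeq2 called 8. A heat shock element pair (GAANNTTC) was present in 9.8% of promoters of raised genes, 4.54% of those of lowered genes, 5.84% of those of tested genes and 7.86% of all promoters. The promoters of Hspb1 (chr5:135887669-135887968, plus strand; capitals mark this pair) and Atf3 (chr1:191183284-191183583, minus strand; capitals mark the first bases of the cAMP element, TGACG, or its reverse complement) are shown as those of the leading stress genes.
Hspb1: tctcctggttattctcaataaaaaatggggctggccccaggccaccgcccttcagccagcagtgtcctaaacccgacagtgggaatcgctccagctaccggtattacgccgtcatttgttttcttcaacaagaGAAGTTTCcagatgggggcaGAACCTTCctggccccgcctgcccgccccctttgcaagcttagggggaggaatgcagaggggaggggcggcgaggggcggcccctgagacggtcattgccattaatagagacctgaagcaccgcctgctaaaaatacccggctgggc
Atf3: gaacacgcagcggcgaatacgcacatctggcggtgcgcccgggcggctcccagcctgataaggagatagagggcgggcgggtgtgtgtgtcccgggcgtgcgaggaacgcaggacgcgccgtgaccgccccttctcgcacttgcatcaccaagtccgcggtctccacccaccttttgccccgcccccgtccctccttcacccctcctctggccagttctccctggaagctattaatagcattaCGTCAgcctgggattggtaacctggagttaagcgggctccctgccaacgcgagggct
The Hspb1 promoter held the pair starting at -117 and -97, and the Atf3 promoter held its match starting at -7. These bases were no more frequent near raised genes (29.8%) than near tested genes (30.2%). The ATF4 composite element (TGATGNAAT) was found in 1.29% of promoters of raised and 0.756% of those of lowered genes, beside 0.461% of those of tested genes and 0.965% of all. The AP-1 element was found in 6.47%, 4.54%, 5.31% and 7.81% of the same groups of promoters. The sterol element (TCACNCCAC) was found in 1.29%, 0.432%, 1.12% and 1.24%, and the E-box (CACGTG) in 9.61%, 8.53%, 9.76% and 7.15%. A direct repeat of AGGTCA with 1 base between occurred in 13 of all promoters. The elements for metal, oxidants and heat shock were chosen after the data had been seen.

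Immediate early genes, which switch on within minutes of many stimuli, were raised in 10 of 29 cases and lowered in 0, with a median of 0.60. Ier3 rose from 262 and 275 to 595, 712 and 742 (log2 fold change 1.37, SE 0.19) and Klf10 from 662 and 522 to 1186, 1516 and 1281 (1.18, SE 0.18). The growth factor-induced Egr1 did not pass the test (0.16, SE 0.16, adjusted p = 0.608). Without Vehicle 3, 3 members were raised, and without Vehicle 2, 8. Among 24 feedback genes of MAP kinase signalling and EGF ligands 3 were raised (median 0.29), namely Spry4, Dusp8 and Hbegf, the last of which was called only with all 5 libraries or without Vehicle 2. DESeq2 called 6. Of 30 inflammatory genes 3 were raised, 6 by DESeq2 (median 0.34), Ptges, Nfkbiz and Tnfaip2, and of 23 interferon response genes 0 were called by edgeR or DESeq2 in either direction (median 0.15). Nfkbiz was not called without Vehicle 3, TC replicate 1 or TC replicate 3, and Tnfaip2 not without either vehicle library, TC replicate 1 or TC replicate 2. At an unadjusted p under 0.05, 2 interferon response genes were lowered and 0 raised. Prostaglandin genes included 4 raised members of 17 (median 0.47) and 1 lowered. Ptges, which makes prostaglandin E2, was at 205 and 173 against 430, 507 and 443 (1.30, SE 0.21), and the thromboxane receptor Tbxa2r at 12.1 and 6.42 against 44.0, 65.4 and 31.2 (2.32, SE 0.57). The receptor for prostaglandin F, Ptgfr, was lowered, at 270 and 346 against 70.4, 61.7 and 81.2 (-2.09, SE 0.23). Tbxa2r was not called without Vehicle 2, Vehicle 3 or TC replicate 2, and without Vehicle 3 the number of raised prostaglandin genes was 1.

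Of 23 p53 targets 6 were raised (median 0.43), and the proapoptotic Bbc3 was lowered, though not without Vehicle 2. Gadd45a was at 487 and 335 against 1052, 1373 and 930 (log2 fold change 1.46, SE 0.22), and the cell cycle inhibitor Cdkn1a at 6094 and 4617 against 9974, 11315 and 9812 (0.97, SE 0.16). Plk3 (1.67) overlaps Tctex1d4, so its reads are uncertain. Of 21 members of the BCL2 family and apoptosis list, Bcl2l11 was raised (0.54) and Bbc3 and Bmf were lowered, while DESeq2 called 5 lowered. Bmf, which promotes cell death when starved cells detach or lose growth signals, was at 318 and 277 against 61.6, 71.0 and 67.7 (-2.13, SE 0.26). Bcl2l11 was no longer called when any of the 5 libraries was left out. Of 48 cell cycle genes Ccnd2 alone was raised (0.35), and it was not called when any of the 5 libraries was left out.

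**Figure D2:**
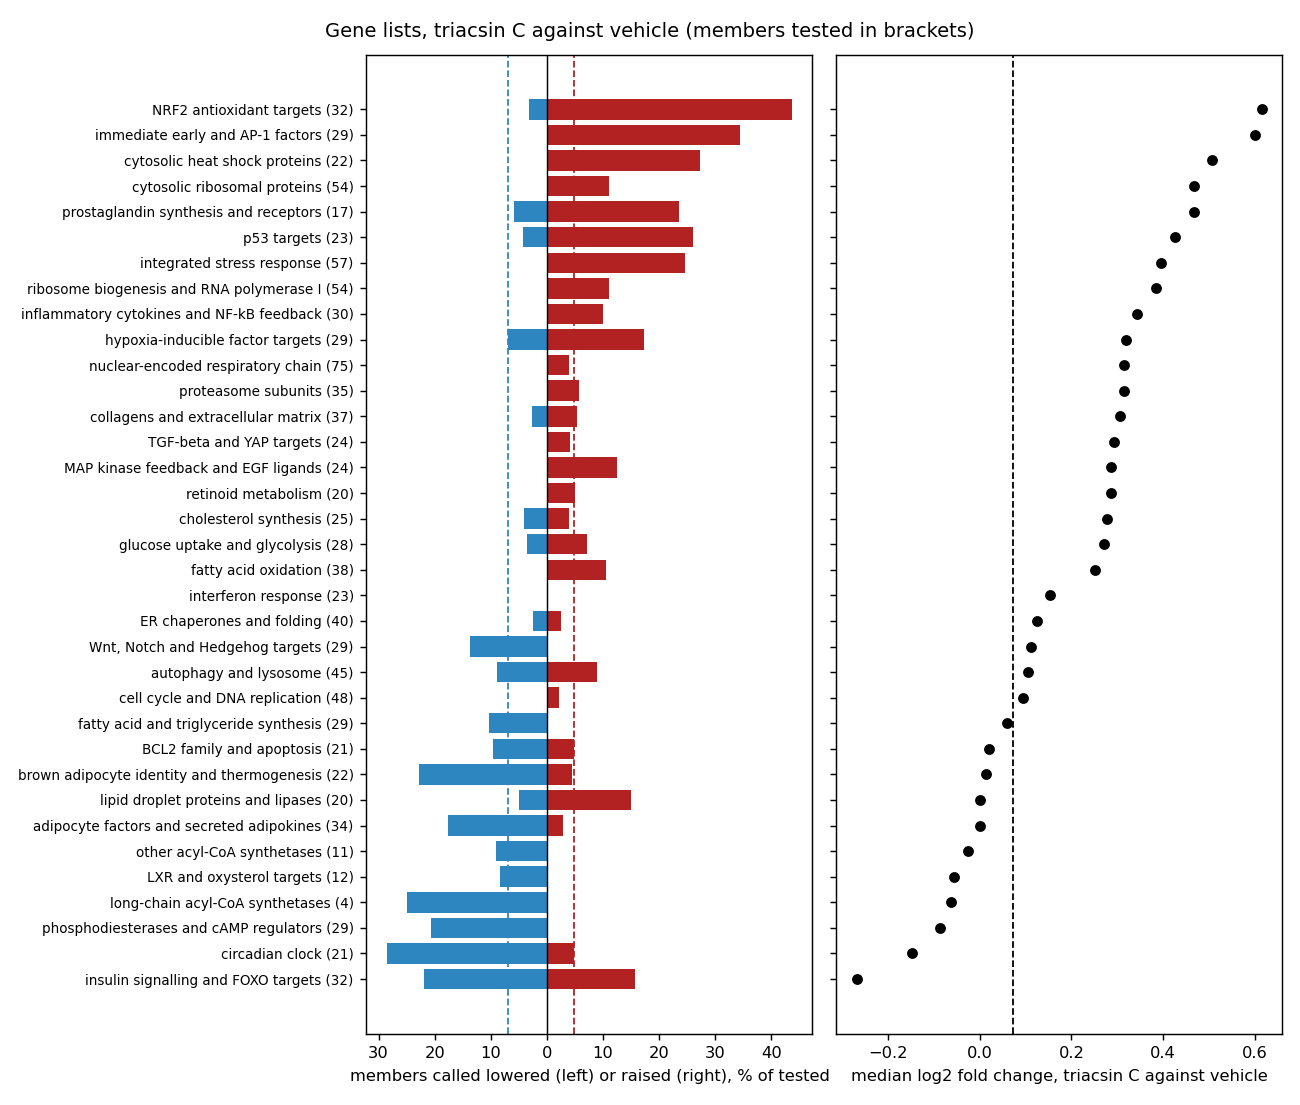
For each of the 35 gene lists, the left panel gives the percent of tested members called raised (to the right) or lowered (to the left) with triacsin C against vehicle, with dashed lines at 4.77% and 6.94% for all genes, and the right panel gives the median log2 fold change with a dashed line at 0.07 for all genes. NRF2 targets have the highest median, at 0.62, and insulin signalling the lowest, at -0.27.

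Some transcription factors of adipocyte differentiation were lowered and others were not called. In the list of adipocyte factors and adipokines, 6 of 34 tested members were lowered and 1 was raised, with a median of 0.00. The sign of this median varied over other tests, scalings, filters and sets of libraries (from -0.14 to 0.06). With the span trend removed the median was -0.18. Pparg, the master regulator of adipogenesis, fell from 4272 and 4856 to 1550, 1605 and 1673, or 35.8% of the vehicle level in the fit (log2 fold change -1.48, SE 0.19, adjusted p = 0.000182). Its dimer partner Rxra was at 7612 and 5217 against 2085, 2428 and 1980 (-1.55, SE 0.24). Ebf1, an adipogenic factor, was at 1153 and 1084 against 456, 335 and 399 (-1.48, SE 0.22). Zfp423, which commits precursors to the adipocyte fate, was at 1998 and 1188 against 248, 345 and 266 (-2.45, SE 0.38). Cebpd, an early adipogenic factor that overlaps Spidr, was the raised member (0.90) and was not called without Vehicle 3 or without TC replicate 2. Of other abundant adipocyte genes in this or the lipid droplet list, 3 that were not called are given here. Adipoq had a log2 fold change of 0.06 (adjusted p = 0.923), the adipogenic factor Cebpa of -0.28 (adjusted p = 0.667) and Lipe, the hormone-sensitive lipase, of -0.07 (adjusted p = 0.93).

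Among regulators of brown fat identity a minority was lowered. Of 22 tested members of that list 5 were lowered and 1, Nnat, was raised, and the median was 0.01. Prdm16, which drives the brown fat programme, was at 553 and 411 in vehicle and 113, 129 and 82.2 with TC, or 22.7% of the vehicle level in the fit (log2 fold change -2.14, SE 0.29, adjusted p = 0.000255). The coactivators Ppargc1a and Ppargc1b were at 703 and 728 against 304, 329 and 398 (-1.04, SE 0.26) and at 1023 and 789 against 425, 480 and 359 (-1.08, SE 0.29), and each was called without only 1 of the 5 libraries, TC replicate 3 for Ppargc1a and TC replicate 2 for Ppargc1b. Ppara (-0.83) and Ebf2 (-1.13) were the other lowered members. These calls were fragile, since 1 member was lowered without Vehicle 2, 1 without Vehicle 3 and 1 without TC replicate 1, and 2 without TC replicate 2 or without TC replicate 3. Nnat overlaps Blcap, so its reads are uncertain, and it was not called without Vehicle 3. Ucp1 did not pass the test at its low level (0.59, SE 0.56, adjusted p = 0.596). Of 75 respiratory chain genes tested, 3 were raised, a smaller share than the 4.77% of all genes (Cox7b, Cox7a2 and Atp5e, between 0.42 and 0.51) and 0 lowered, with a median of 0.32. A value above 0 was found for 74 of the 75, in a list with a median span of 6889 bases, and 22 were higher in TC than in ETO libraries, where 8.08% of all genes were. Values above 0 are common among short genes, since of all genes under 10 kb only 579 of 3441 were below 0. DESeq2 called 7 respiratory chain genes raised and 0 lowered. Without Vehicle 3, TC replicate 2 or TC replicate 3, 0 respiratory chain genes were called raised, and without Vehicle 2 it was 2.

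The insulin receptor was among the clearest decreases. Insr was at 4117 and 4196 in vehicle and 1167, 1191 and 1102 with TC, or 28.2% of the vehicle level in the fit (log2 fold change -1.83, SE 0.16, adjusted p = 1.09e-05). In the list of insulin signalling and FOXO targets 7 of 32 members were lowered and 5 raised, and the median of -0.27 was the lowest of all lists. Pik3r1, the regulatory subunit of phosphoinositide 3-kinase, was at 3507 and 3864 against 2031, 1664 and 1866 (-0.97, SE 0.15). Fbxo32, a ubiquitin ligase and FOXO target, was at 270 and 304 against 147, 121 and 103 (-1.20, SE 0.18). The raised members were led by Gadd45a, Pdk4, which turns off pyruvate dehydrogenase (1.16, SE 0.19), and Arrdc4 (1.08, SE 0.19). Without Vehicle 3 the raised members numbered 3. The list moved both ways, and its FOXO targets did so too, with Pdk4 raised and Fbxo32 lowered.

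Of 29 phosphodiesterases and cAMP regulators 6 had lower RNA levels and 0 were raised, with a median of -0.09 (from -0.34 to -0.09 over other tests, scalings, filters and sets of libraries and -0.05 with the span trend removed), and DESeq2 gave 7 and 0. The number lowered was 3 without Vehicle 2, 1 without Vehicle 3 and 3 with the span trend removed, an alternative chosen after seeing the data. Adcy9, an adenylyl cyclase, was at 827 and 640 against 179, 201 and 196 (log2 fold change -1.91, SE 0.19, adjusted p = 2.43e-05). Pde1a was at 336 and 411 against 125, 108 and 168 (-1.46, SE 0.31; not called without Vehicle 3), and Pde3b, which mediates the antilipolytic action of insulin and was picked after its values were seen, at 2861 and 3156 against 1049, 1200 and 1031 (-1.44, SE 0.33).

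The circadian clock list held 6 lowered members of 21 and 1 raised, with a median of -0.15. Npas2, a partner of the core clock factor BMAL1, was at 48.5 and 30.8 against 4.4, 10.3 and 6.24 (log2 fold change -2.42, SE 0.42). The output gene Dbp, which overlaps Sphk2, was lowered as well (-1.32, SE 0.24). Ciart, a repressor of the clock, was raised from 44.4 and 43.7 to 153, 155 and 152 (1.81, SE 0.20). The number lowered was 3 without Vehicle 2 and 3 without Vehicle 3. Of 29 Wnt, Notch and Hedgehog genes 4 were lowered and 0 raised by either tool (median 0.11), among them Ptch1 (-0.72), Znrf3 (-0.88) and Apcdd1 (-0.98), and without Vehicle 2 or TC replicate 3 0 were called. Ptch1 was not called without Vehicle 3 either.

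Among the long-chain acyl-CoA synthetases, several of which triacsin C inhibits, the most abundant RNA was lowered and the others tested were not called. Of 5 long-chain acyl-CoA synthetases 4 were tested. Acsl1, the main form in adipocytes, was at 15463 and 16974 in vehicle and 9164, 8287 and 9387 with TC, or 56% of the vehicle level in the fit (log2 fold change -0.84, SE 0.23, adjusted p = 0.0294). The 3 TC libraries lay below both vehicle libraries, but the gene was no longer called when any of the 5 libraries was left out. Against ETO libraries, at 17966, 18470 and 24370, it was lower as well (-1.15, SE 0.21, adjusted p = 0.00208). Acsl3 was at 477 and 794 against 902, 583 and 911 (0.35, SE 0.43) and overlaps Utp14b. Acsl4 was at 616 and 1380 against 1024, 696 and 958 (-0.14, SE 0.55) and Acsl5 at 708 and 881 against 766, 719 and 883 (0.01, SE 0.26). In these genes vehicle and TC libraries overlapped, and the standard errors leave room for sizeable changes in either direction. Acsl6 was near 0, with at most 6.24 normalized counts in any of the 5 libraries. The median of the 4 tested genes was -0.06, and it ranged from -0.37 to 0.36 over the settings tried. Among 11 other acyl-CoA synthetases tested, the mitochondrial Acss3 was lowered, from 382 and 371 to 202, 184 and 244 (-0.82, SE 0.21), a call kept only when TC replicate 3 was the library left out.

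Of 20 lipid droplet genes tested, 3 were raised and 1, no larger a share than of all genes, was lowered. The median was 0.00 (from -0.15 to 0.40 over other tests, scalings, filters and sets of libraries and -0.22 with the span trend removed). Angptl4, a secreted inhibitor of lipoprotein lipase and PPAR target, was at 3258 and 2670 against 8547, 7781 and 8438 (log2 fold change 1.50, SE 0.13, adjusted p = 9.63e-06). Hilpda, an inhibitor of the lipase ATGL, was at 188 and 152 against 312, 406 and 375 (1.12, SE 0.18). The other raised member, Plin2, a droplet coat protein, was at 6811 and 4615 against 9078, 11324 and 9123 (0.80, SE 0.23), and among the 5 leave-outs it was called only without Vehicle 2. Ffar4, a fatty acid receptor, was not called (0.92, SE 0.34, adjusted p = 0.107). Mgll, the lipase of the last step of triglyceride breakdown, was lowered from 7019 and 5822 to 2707, 3400 and 3028 (-1.06, SE 0.18). Among 38 fatty acid oxidation genes 4 were raised and 0 lowered, 1 lowered by DESeq2, and the median was 0.25. Besides Pdk4 these were the thioesterases Acot1, Acot2 and Acot4, which free fatty acids from coenzyme A. Acot2, a mitochondrial form, was at 1308 and 1011 against 2244, 2812 and 2247 (1.09, SE 0.19), and Acot4 had the largest change of the group (1.34, SE 0.26), though it was not called without Vehicle 3. These Acot genes are close paralogs, so their reads may have been split. The number raised was 2 without Vehicle 3.

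Synthesis of fatty acids and triglyceride had 3 lowered members of 29 and 0 raised, by DESeq2 4 and 0, with a median of 0.06. Acaca, which makes malonyl-CoA, was at 3926 and 3541 against 1304, 1544 and 1609 (log2 fold change -1.31, SE 0.13, adjusted p = 3.64e-05). Gpam, which starts glycerolipid synthesis with acyl-CoA, was at 8975 and 7544 against 3592, 4007 and 4036 (-1.07, SE 0.18). Dgat2, which adds the last acyl chain, was at 7942 and 5734 against 3958, 4836 and 4304 (-0.63, SE 0.18). The number lowered was 2 without Vehicle 2, without TC replicate 1 or without TC replicate 3, since Dgat2 was then not called. Of 25 cholesterol synthesis genes 1 was raised and 1 lowered, with a median of 0.28, and the lowered gene was Fdft1 (-0.50), which overlaps Ctsb. The call on Fdft1 was lost when any of the 5 libraries was left out. Of 12 LXR targets the cholesterol exporter Abca1 was lowered, from 3868 and 4137 to 1541, 1137 and 1309 (-1.57, SE 0.16), and the median was -0.06.

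Ribosomal proteins were raised in 6 of 54 cases (median 0.47) and ribosome biogenesis genes in 6 of 54 (median 0.38), with 0 lowered in either list by either tool, and the numbers raised were 1 and 1 without Vehicle 3, 1 and 2 without Vehicle 2, 3 and 2 without TC replicate 1 or 3, and 2 and 3 without TC replicate 2. Nop56, a small nucleolar ribonucleoprotein that overlaps Idh3b, was at 1320 and 1170 against 2465, 2361 and 2370 (log2 fold change 0.97, SE 0.13). Ribosomal protein genes have many processed copies, so their counts are uncertain. Hypoxia targets had 5 raised and 2 lowered of 29 (median 0.32, from 0.11 to 0.31 over other tests, scalings, filters and sets of libraries), glycolysis 2 and 1 of 28 (0.27, from 0.09 to 0.46), autophagy and lysosome 4 and 4 of 45 (0.11), the proteasome 2 and 0 of 35 (0.31), extracellular matrix 2 and 1 of 37 (0.31), TGF-beta and YAP targets 1 and 0 of 24 (0.29) and retinoid metabolism 1 and 0 of 20 (0.29). Among all tested genes 4.77% were raised and 6.94% lowered, and the raised members of the proteasome, matrix, TGF-beta and retinoid lists lie near that share. By DESeq2 the raised members of the hypoxia, proteasome and matrix lists numbered 8, 6 and 4. Raised members of the hypoxia, glycolysis, autophagy, proteasome, matrix and retinoid lists numbered 2, 0, 0, 0, 0 and 0 without Vehicle 3 and 3, 0, 2, 1, 0 and 0 without Vehicle 2. Without any 1 of the TC libraries the first 4 of these lists gave 3, 1, 2 and 1, and the matrix list gave 0 without TC replicate 1 or 3. Lowered hypoxia targets numbered 0 without Vehicle 2 and 1 without Vehicle 3 or TC replicate 1, and 2 glycolysis genes were lowered without Vehicle 3. The autophagy receptor Sqstm1, which NRF2 also controls, was raised from 13680 and 10533 to 18893, 20848 and 17992 (0.69, SE 0.18), though it was not called without Vehicle 3, TC replicate 1 or TC replicate 2. In the same list Mitf, Uvrag and Atg7 were lowered, at log2 fold changes of -1.44, -0.67 and -0.86.

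The genes with the largest decreases were long. By the rule for naming, the 10 largest decreases among well-counted genes were Ralgps1, Reps2, Angpt1, Tenm4, Sntb1, Plekha7, Esr1, Prkce, Slc22a23 and Zfp423, with log2 fold changes from -3.28 to -2.45. Esr1, the estrogen receptor, was at 483 and 392 in vehicle and 55.7, 64.5 and 91.6 with TC (-2.60, SE 0.23, adjusted p = 1e-05), or 16.5% of the vehicle level in the fit. Prkce, protein kinase C epsilon, was at 985 and 1101 against 160, 161 and 197 (-2.57, SE 0.15, adjusted p = 3.64e-07). Angpt1, a ligand that stabilises blood vessels, was at 326 and 477 against 45.5, 49.5 and 77.0 (-2.78, SE 0.52). Ralgps1, with the largest decrease, contains the opposite-strand gene Angptl2 and its reads are uncertain. The span of these 10 genes, from start to end in the table, ran from 65724 bases for Plekha7 to 697918 bases for Tenm4. The median span of tested genes was 21.7 kb, that of lowered genes 120 kb and that of raised genes 9.03 kb.

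The relation to span ran through the whole table and was noticed after the data had been seen. Among 3441 genes spanning under 10 kb the median log2 fold change was 0.31, with 9.88% raised and 0.581% lowered. In 4309 genes from 10 to 30 kb it was 0.15, with 5.06% raised and 0.928% lowered. For 3516 genes from 30 to 100 kb it was -0.17, with 1.19% raised and 8.11% lowered. For 1520 genes of 100 kb or more it was -0.57, with 0.658% raised and 35.7% lowered, and 81.8% of them had a negative value. The median of genes under 10 kb was 0.47 without Vehicle 2, and that of genes from 30 to 100 kb was -0.07 without Vehicle 3. Genes of at least 100 kb made up 61.1% of lowered, 1.64% of raised and 11.9% of tested genes. The rank correlation of log2 fold change with span was -0.56 across 12786 genes, which are not independent replicates and share the same libraries. Long genes took 8.94% and 9.91% of the counts in vehicle and 6.56%, 5.65% and 6.24% with TC, and 9.09% to 10.5% in the other 11 libraries. The 3 TC libraries were therefore the lowest of all 16, and the groups did not overlap.

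**Figure D3:**
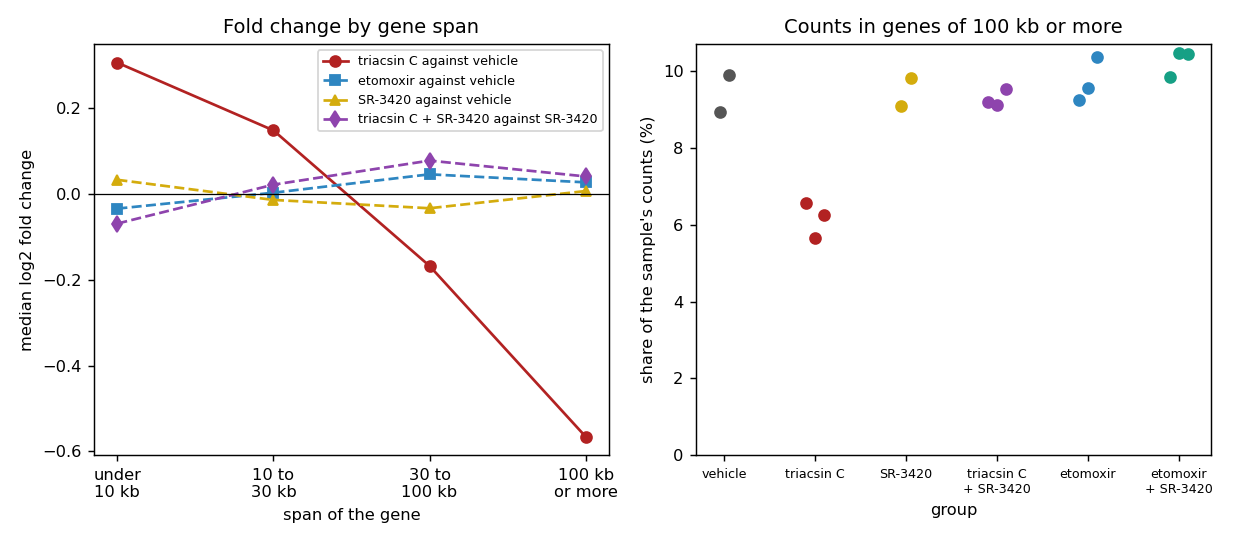
Left, median log2 fold change (vertical axis) of genes grouped by span for 4 comparisons; the line of triacsin C against vehicle goes from 0.31 to -0.57, while the others stay near 0. Right, percent of the counts of each library (points) that fall in genes of 100 kb or more, by group; the 3 triacsin C libraries lie between 5.65% and 6.56%.

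The medians of genes of 100 kb or more in the other comparisons were 0.03 for ETO against vehicle, 0.01 for SR-3420 against vehicle and 0.04 for TC+SR-3420 against SR-3420. Those for genes under 10 kb were -0.03, 0.03 and -0.07. In TC+SR-3420 against SR-3420, 7.37% of genes of 100 kb or more were lowered and 0.789% raised, beside 2.15% and 1.22% of genes under 10 kb. The first 2 share the vehicle libraries with TC against vehicle, and the last shares no library with it. Span goes with level and with counted length, so genes were also grouped by these. Levels were taken from the ETO libraries, which are not part of the comparison. In the lowest tertile by level, which holds genes that could enter the test only through their TC level, the median was 0.44 under 10 kb and -0.25 at 100 kb or more, and in the highest tertile 0.29 and -0.65. Within the shortest tertile by counted length it was 0.32 and -0.34, and within the longest tertile 0.30 and -0.62. Gene lists differ in span too: its median was 3197 bases in ribosomal proteins, 5021 in immediate early genes and 80128 in phosphodiesterases and cAMP regulators. The extracellular matrix list, with a median span of 60531 bases, had a median log2 fold change of 0.31, beside -0.17 for all genes from 30 to 100 kb. Insr (128696 bases), Pparg (129181 bases), Prdm16 (320749 bases) and Adcy9 (135613 bases) are long genes as well. When the trend with span was removed from each library, an alternative chosen after seeing the data, 371 of all genes tested were raised and 455 lowered. Among them 9 of 32 NRF2 targets, 10 of 57 integrated stress response genes, 3 of 22 heat shock proteins and 5 of 29 immediate early genes were raised. Under the same alternative 7 of 34 adipocyte factors, 2 of 22 brown fat regulators, 7 of 32 insulin signalling genes, 3 of 21 clock genes and 3 of 29 cAMP regulators were lowered. Raised ribosomal proteins and ribosome biogenesis genes then numbered 1 and 1, hypoxia targets 2, autophagy genes 0, glycolysis genes 0, proteasome subunits 0, inflammatory genes 1, respiratory chain genes 1 and matrix genes 4. Lowered autophagy genes numbered 1, hypoxia targets 0, Wnt, Notch and Hedgehog genes 2, lipid droplet genes 0 and long-chain and other acyl-CoA synthetases 0, so that Acsl1 was not called. In the list of chaperones of the endoplasmic reticulum 0 were called in either direction. The part of span in the other results was not tested further.

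Apart from Hmox1 and Mt2, the 10 largest increases by the rule for naming were in genes that were nearly silent in vehicle. Such genes could reach the mean that the rule asks for only through their TC level, so the selection favours this pattern. Pmp2, a fatty acid binding protein of peripheral myelin, had 3 and 5 counts in vehicle and 579, 766 and 815 with TC, a ratio of 178 (95% interval 90.4 to 414). Fabp9, a fatty acid binding protein of testis, had 3 and 2 counts against 234, 183 and 268, a ratio of 90.5 (38.6 to 280). Chrm1, a muscarinic receptor, had 2 counts in the vehicle libraries together and 264 with TC, a ratio of 87.2 (23.9 to 724). Spatc1l had 7 and 260 (24.5, 11.7 to 61.6), and Dnajb13, a protein of sperm tails, 12 and 284 (15.6, 8.81 to 30.6). These ratios are scaled by library, and their intervals cover counting error only. Arid3c, noticed after its values were seen, had 0 counts in vehicle and 99 with TC, with a lower 95% counting limit of 17.4 for the ratio. Set against a floor of 3 counts over the vehicle group, the ratio was 21.8. By the rule for naming, which asks for a mean of at least 50, Trim17, Myo1g and the iodide transporter Slc5a5 completed the 10 largest increases together with Hmox1 and Mt2. Called genes with fewer counts had larger log2 fold changes in part, such as Kcnk7 at 7.35. Myo1g was not called without Vehicle 2 (adjusted p = 0.0585) or without Vehicle 3 (adjusted p = 0.11).

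Pmp2 and Fabp9 lie behind Fabp4, the adipocyte fatty acid binding protein, on the same strand of chromosome 3. Fabp4 occupies positions 10204343 to 10208576 (mm9, minus strand), Fabp9 10193624 to 10197283 and Pmp2 10179851 to 10183885. Transcription on the minus strand runs toward lower positions, so that Fabp9 starts 7059 bases after the end of Fabp4 and Pmp2 starts 9738 bases after the end of Fabp9. Fabp4 itself was at 89050 and 101639 in vehicle and 116458, 110590 and 126559 with TC (log2 fold change 0.33, adjusted p = 0.493), the top level per length among the markers. In ETO libraries Pmp2 was between 9.8 and 12.9 normalized counts and in TC+SR-3420 libraries between 16.4 and 20.5, beside 849, 716 and 848 with TC alone. Fabp4, Fabp9 and Pmp2 are paralogs, and reads of Fabp4 counted to the other 2 genes cannot be told apart from their own. In ETO libraries Fabp4 was at 87633, 90048 and 125610 and Fabp9 at 2.72, 5.44 and 7.05.

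**Figure D4:**
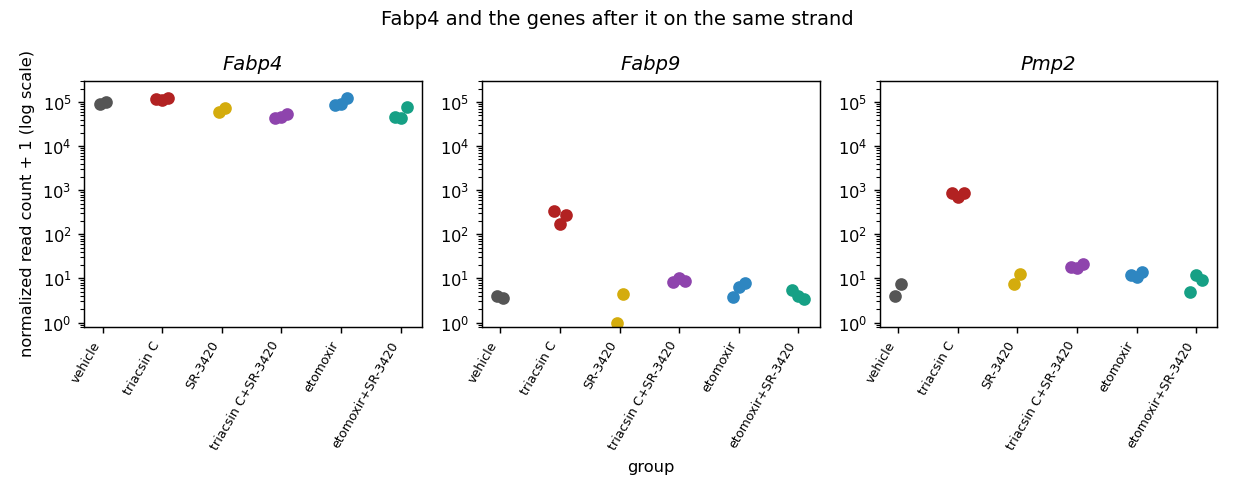
Normalized read count plus 1 (log scale) of Fabp4, Fabp9 and Pmp2 in each library (points) by group. Fabp9 and Pmp2 are high in the 3 triacsin C libraries only, between 171 and 849, while Fabp4 is abundant in all 16 libraries.

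The same arrangement was frequent among raised genes. Leaving out genes that overlap another, 265 genes were raised by at least 1 on the log2 scale, and 134 of them (50.6%) had a gene ending within 10 kb upstream on the same strand. That share was 38.9% for all raised, 7.42% for lowered and 22.3% for tested genes. With the upstream neighbour on the opposite strand the shares were 14% for the 265 genes and 21.3% for tested genes, and for a same-strand gene downstream 23.8% and 23.1%. Short genes have closer neighbours, so the comparison was repeated for genes under 30 kb, where the shares for a same-strand upstream gene were 51.2% for those raised by at least 1, 23.1% for lowered and 30% for tested genes. Of the 134 neighbours 128 were tested, 10 of which were raised and 3 lowered, and 91 had at least 10 times the level per length of the raised gene in ETO libraries. Of tested genes under 30 kb, 117 had so abundant a neighbour less than 2 kb away and 492 a less abundant one. From 2 to 10 kb these numbers were 220 and 1195. A gene nearly silent in ETO libraries reaches such a ratio easily, and the 91 were not counted again with a filter on ETO counts. Examples among the 134 pairs are Lss upstream of Spatc1l (8337 bases) and Hist3h2a upstream of Trim17 (8588 bases). In both pairs the upstream gene was not called (log2 fold changes 0.24 and 0.17). Genes nearly silent outside TC, such as Arid3c, could enter the test only through their TC level, which favours raised calls among them. The shares were therefore taken again, a choice made after seeing the data, over the 11686 tested genes with at least 10 counts in every ETO library. Of 166 genes raised by at least 1 that remained, 72 (43.4%) had a same-strand gene upstream within 10 kb, beside 33.5% of raised, 7.42% of lowered and 21.7% of tested genes.

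Distance and level of the upstream gene went together with the increase. Among genes under 30 kb whose upstream neighbour ended less than 2 kb away and had at least 10 times their level, 31.6% of 117 were raised, with a median log2 fold change of 1.14. For less abundant neighbours at that distance it was 8.33% of 492, with a median of 0.26. From 2 to 10 kb the shares were 23.6% of 220 and 5.69% of 1195, from 10 to 50 kb 9.27% of 248 and 6.09% of 1889, and at 50 kb or more 6.19% of 226 and 5.86% of 2355. The medians for abundant neighbours were 0.65, 0.44 and 0.34 at these distances, and those for the rest 0.23, 0.19 and 0.17. Genes with few counts outside TC weigh on these groups as well. With at least 10 counts in every ETO library, the shares for abundant neighbours were 31.6% of 57, 17.7% of 113, 6.98% of 129 and 4.17% of 120 from the nearest to the farthest distance, and for the rest 8.61%, 5.32%, 6.09% and 5.88%. The medians were then 0.84, 0.34, 0.35 and 0.19 for abundant neighbours and 0.26, 0.21, 0.18 and 0.17 for the rest. This pattern was noticed after the data had been seen and is given as a description. Not all large increases had such a neighbour: for Chrm1 and Dnajb13 the next gene upstream on the same strand ended 35705 and 34306 bases away.

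**Figure D5:**
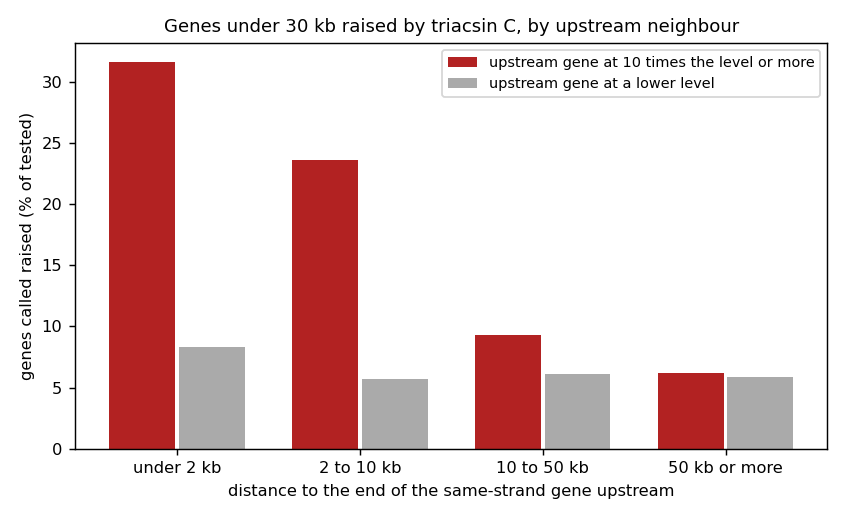
Percent of tested genes under 30 kb called raised with triacsin C (bars, vertical axis from 0), by the distance to the end of the next same-strand gene upstream and by whether that gene had at least 10 times the level per length. With abundant neighbours the share is 31.6% under 2 kb and 6.19% at 50 kb or more, and genes with few counts outside triacsin C libraries are included.

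Etomoxir blocks the entry of acyl-CoA into mitochondria, after the step that triacsin C inhibits, and its libraries show the levels of the same genes under another inhibitor of fatty acid use. How far oxidation was active in these unstimulated cells was not measured here. Between TC and ETO libraries 1033 genes were higher with TC (8.08%) and 1125 lower (8.8%), 2158 in all (16.9%). ETO against vehicle, which uses the same vehicle libraries, called 2 genes raised (0.0156%) and 1 lowered (0.00782%), 3 in all (0.0235%). An unadjusted p under 0.05 was reached by 283 genes, and DESeq2 called 17. The 3 genes were Hmox1, Fgf21 and Bmf. Hmox1 was at 10780, 10054 and 9687 with ETO, above vehicle and below TC, and differed between the inhibitors (log2 difference 1.93, SE 0.14, adjusted p = 2.61e-06). Fgf21 was at 44.4, 47.9 and 44.7 and Bmf at 64.4, 66.4 and 70.5 with ETO, and their log2 differences between TC and ETO were -0.18 (SE 0.17) and 0.02 (SE 0.25). Mt2 was at 742, 567 and 632 with ETO, within the range of vehicle or below, and was higher with TC (3.54, SE 0.15, adjusted p = 4.53e-08). Insr, at 4030, 3768 and 4289 with ETO, was lower with TC (-1.78, SE 0.15, adjusted p = 5.96e-06), as was Prdm16 at 473, 409 and 335 (-1.89, SE 0.27, adjusted p = 0.000336).

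SR-3420 alone, with lipolysis triggered and acyl-CoA synthesis intact, was compared directly with TC alone. TC libraries were higher than SR-3420 libraries for 1106 genes (8.65%) and lower for 1258 (9.84%), 2364 in all (18.5%), so that 46.8% of calls were higher with TC, or 56.9% with upper quartile scaling. SR-3420 against vehicle called 607 genes raised (4.75%) and 357 lowered (2.79%), 964 in all (7.54%), of which 63% were raised, or 45.6% with upper quartile scaling. SR-3420 and TC are both set against the same vehicle libraries here, so values are given side by side. In the integrated stress response list 36 members were raised with SR-3420 and 14 with TC, and the medians were 0.81 and 0.39. Immediate early genes had 22 and 10 raised members, with medians of 1.68 and 0.60. NRF2 targets had 4 and 14 raised members and medians of -0.09 and 0.62.

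TC was also added together with SR-3420, in libraries that share none with TC against vehicle. TC+SR-3420 against SR-3420 called 131 genes raised (1.02%) and 454 lowered (3.55%), 585 in all (4.58%). Of the 610 genes raised by TC alone 64 were raised again, which is 10.5% of that list and 48.9% of the 131. Of the 887 lowered 174 were lowered again, 19.6% of that list and 38.3% of the 454. In the opposite direction went 10 of the raised and 0 of the lowered genes. The medians of both lists in the second comparison were 0.23 and -0.27. Hmox1 (2.43) and Mt2 (2.15) were raised again, as were Txnrd1 (1.51), Gclc (0.90) and Atf3 (1.16). Insr (-1.17), Prdm16 (-1.34), Acsl1 (-1.35) and Adcy9 (-1.06) were lowered again, of which Acsl1 had lost its first call without any 1 of the 5 libraries. Effects of TC with and without SR-3420 differed for 158 genes in the raised (1.24%) and 163 in the lowered direction (1.27%), 321 in all (2.51%).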

How the data were processed

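RNA-seq counts per gene were analysed as the authors deposited them. The authors mapped reads to mm9 with STAR 2.4.2a, kept 1 read per position and length with HOMER and counted reads per gene with iRNA-seq and its gene option, per the study's methods and the submitters' processing notes. Strand use, and whether that option includes intron reads, are not given in the sources used here. Fabp4, with 641 counted bases, had 88178 counts in Vehicle 2, so how the filter by position bears on the deposited counts is unclear, and levels of abundant genes may depend on it. Overlapping genes, 2032 in the table, were treated as sharing reads. Symbols were used as in the table, where 14 had turned into dates.

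Genes passing edgeR's expression filter (12786 of 20295) were scaled by TMM and fitted in 1 quasi-likelihood model with the means of 6 groups over 16 samples (edgeR 4.0.16, R 4.3.3), and p-values were adjusted by Benjamini-Hochberg across the tested genes. A gene was called at an adjusted p under 0.05. Normalized counts of single genes used size factors of DESeq2 1.42.0. Total counts ran from 9452861 to 25670624 per library, and 3 counts were taken as the floor. Steps were tested on simulated data. No pair of replicate libraries held identical counts, or counts that agreed within sampling noise.

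Named genes were the 10 largest changes in each direction among genes that were called, had a mean of at least 50 and did not overlap between the groups, at most 3 called members with the smallest adjusted p per list and direction, the long-chain acyl-CoA synthetases, and Pdk4, Plin2, Fgf21, Ucp1 and Ffar4. The samples, lists and rule were chosen with earlier results of these data known. Alternatives were DESeq2's test, other scalings, filters and thresholds, only the 5 libraries, a replicate block, leaving out each library or overlapping genes and, chosen after seeing the data, removing the trend with gene span (a natural spline with 5 degrees of freedom per library) and, for neighbouring genes, a filter on ETO counts. Figures were drawn with Python 3.11.15 and matplotlib 3.10.9.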

Additional observations from a re-analysis of the deposited data

Results flagged for a closer look

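The effect of triacsin C was measured without and with SR-3420, and the test of the difference between both effects called 321 genes. Among the 20 genes with the largest changes by the rule for naming, 12 were called in this test. They had been chosen by their change without SR-3420, so a difference toward a smaller effect with it was the likely direction and is no result of its own. A negative difference means a lower log2 fold change with SR-3420 than without.

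Genes raised by triacsin C alone gave log2 differences of -6.45 for Pmp2, -5.91 for Spatc1l, -3.69 for Trim17, -3.08 for Slc5a5, -2.86 for Dnajb13, -1.24 for Mt2 and -1.11 for Hmox1. With SR-3420 present, Pmp2 had a log2 fold change of 0.99 (adjusted p = 0.155), Trim17 of -0.17 and Slc5a5 of 0.03, none of which were called. Mt2 (2.15, adjusted p = 4.25e-05) and Hmox1 (2.43, adjusted p = 1.91e-05) were still raised.

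Genes lowered by triacsin C alone gave differences of 3.37 for Reps2, 2.32 for Ralgps1, 1.96 for Esr1, 1.46 for Prkce and 1.42 for Sntb1. With SR-3420 present Reps2 (0.55) and Esr1 (-0.65) were not called, while Ralgps1 (-0.96), Sntb1 (-1.33) and Prkce (-1.11) were still lowered. SR-3420 alone, against vehicle, also lowered Reps2 (-2.20), Ralgps1 (-1.05) and Esr1 (-0.97), whereas Sntb1 (-0.71) and Prkce (-0.17) were not called.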

How the results depend on the processing

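The 1497 genes called for triacsin C against vehicle became 796 at an adjusted p under 0.01, 705 with a log2 fold change of at least 1 in size and 826 with the trend over gene span removed (577 of them among the 1497). They ranged from 702 to 1089 when 1 library was left out, with 840 without Vehicle 2 and 702 without Vehicle 3. In those fits the lone vehicle library is assumed to vary like the other groups. The raised share was 40.7%, but 25.6% without Vehicle 3 (180 raised and 522 lowered), 30.2% without the filter on low counts and 31.9% with only the 5 libraries. Under DESeq2's test the count stayed within 1.5 times at 2035, while ETO against vehicle gave 17 genes (5 with upper quartile scaling), SR-3420 against vehicle 1604, TC+SR-3420 against SR-3420 1230 and the difference of the TC effects 832. That difference gave 163 without the filter. The causes were not tested. The raised share of SR-3420 against vehicle and of TC against SR-3420 depended on the scaling, as given with those results.

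Replicate numbers are shared between groups, but nothing states what they stand for. Deviations correlated above 0.1 in 27 of 35 same-numbered pairs of libraries, at 0.60 and 0.43 for the pairs of vehicle and TC, and TC replicate 1 was at -0.28 to -0.15 with the 4 other libraries of its number. The main fit did not use the numbers as pairs, since the study's methods state no such block. Whether libraries of the same number share an experiment was not tested. With a replicate block 3072 genes were called for TC against vehicle (1530 raised, or 49.8%, and 1542 lowered, all 1497 included), 4994 for TC against ETO, 4430 for TC against SR-3420, 6 for ETO against vehicle, 2438 for SR-3420 against vehicle, 3008 for TC+SR-3420 against SR-3420 and 1669 for the difference of the TC effects.

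Of 115 called named genes, 115 were called under DESeq2 and 115 with the block, 113 with either other scaling, 100 without the filter, 98 with only the 5 libraries, and between 72 and 96 when 1 library was left out. With the span trend removed 40 were no longer called and Psmd8 turned to -0.013 (adjusted p = 0.981) from 0.36. The 20 genes with the largest changes by the rule for naming gave 291 results over all settings, of which 289 kept call and direction. These 20 were picked from the same libraries as the largest called changes without overlap of the groups, so keeping their calls was the likely outcome. The median of genes of 100 kb or more was between -0.64 and -0.49 over the planned settings. With the trend removed it was -0.06, a value near 0 by construction, since the removed trend was fitted on span. List medians changed sign under some planned setting for long-chain and other acyl-CoA synthetases, lipid droplet genes, fatty acid and triglyceride synthesis, LXR targets, interferon response, brown fat identity, adipocyte factors, BCL2 family and Wnt, Notch and Hedgehog genes. For brown fat identity the median ran from -0.17 to 0.25 over the planned settings and was -0.24 with the span trend removed. Over the planned settings medians that kept their sign ranged from 0.55 to 0.81 for NRF2 targets, 0.42 to 0.80 for immediate early genes, 0.31 to 0.57 for the integrated stress response, 0.43 to 0.54 for heat shock proteins, -0.40 to -0.19 for insulin signalling, -0.27 to -0.06 for clock genes, 0.16 to 0.43 for fatty acid oxidation, 0.17 to 0.49 for the respiratory chain, 0.29 to 0.67 for ribosomal proteins, 0.17 to 0.49 for inflammatory genes and 0.03 to 0.13 for autophagy genes. With the span trend removed the medians were -0.02 for the respiratory chain, -0.04 for autophagy genes, -0.06 for the cell cycle and -0.07 for ER chaperones. Medians of other lists were then 0.36 for NRF2 targets, 0.28 for the integrated stress response, 0.21 for immediate early genes and 0.13 for p53 targets. They were 0.10 for fatty acid oxidation, 0.09 for heat shock proteins, 0.02 for ribosomal proteins and 0.02 for inflammatory genes. Insulin signalling was at -0.32 and clock genes at -0.29, beside -0.05 for all genes. For neighbouring genes the filter on ETO counts left the share of genes raised by at least 1 that follow another at 43.4% instead of 50.6%. Depth limits genes with few counts in vehicle, whose ratios have wide intervals, and 2 vehicle libraries limit every call.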
